A study of Mus musculus with 6 samples.

Results

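The glucocorticoid receptor and its chaperone machinery were examined as 10 genes taken by symbol from the deposited expression table: *Nr3c1*, *Fkbp5*, *Fkbp4*, *Hsp90aa1*, *Hsp90ab1*, *Ptges3*, *Stip1*, *Hspa8*, *Dnajb1* and *St13*. The table lists 16579 genes, of which 12256 passed the filter on low counts, and all 10 were among them. The genes were chosen with the genotype difference of *Fkbp5* already known, so their values, intervals and counts are a description, from which no support is drawn, and no p is given for them. RNA was sequenced from bone marrow cells sorted by flow cytometry and labelled megakaryocytes (MKs), from 3-month-old mice. There were 3 libraries labelled Becn1f/f, in which *Becn1* is flanked by loxP sites, and 3 labelled Becn1f/f;Pf4-iCre, which carry the same floxed gene and a Cre recombinase driven by the platelet factor 4 (*Pf4*) promoter, active in the megakaryocytic lineage. Becn1 is a core component of the lipid kinase complex that starts autophagosome formation, and the comparison asks what its deletion in that lineage changes in the RNA of MKs. The libraries are numbered 1 to 3 in each genotype, and nothing in the labels states that each is a separate mouse, so the spread between them may be partly technical.

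The glucocorticoid receptor binds hormone only after it has been folded by a chaperone relay. HSP70, with an HSP40 partner, takes up the receptor, the adaptor HOP (encoded by *Stip1*) passes it to HSP90, and the cochaperone p23 (encoded by *Ptges3*) stabilizes the mature complex. The immunophilins FKBP51 (*Fkbp5*) and FKBP52 (*Fkbp4*) then compete for HSP90: FKBP51 lowers the affinity of the receptor for hormone, whereas FKBP52 favours hormone binding and transport to the nucleus. *Fkbp5* is itself a widely used glucocorticoid target gene, which closes a short negative feedback loop.

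The promoters of the 2 immunophilin genes are shown because these paralogs act in opposite ways on the receptor and their genotype differences had opposite signs. Both are RefSeq sequences on the minus strand of GRCm38.p6, covering the 250 bases before the annotated start, at chr17:28486150-28486399 for *Fkbp5* and chr6:128438657-128438906 for *Fkbp4*. The *Fkbp5* window lies before the start that RefSeq gives, which is inside the span of the gene in GENCODE. Other annotated *Fkbp5* transcripts start further upstream, up to position 28517527, and the sequence before those starts was not examined. Capitals mark a pair of heat shock element units.
Fkbp5: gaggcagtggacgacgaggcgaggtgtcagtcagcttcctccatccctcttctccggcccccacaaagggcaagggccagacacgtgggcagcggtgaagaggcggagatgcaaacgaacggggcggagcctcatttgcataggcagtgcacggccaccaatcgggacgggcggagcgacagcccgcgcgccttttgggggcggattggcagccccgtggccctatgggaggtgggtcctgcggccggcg
Fkbp4: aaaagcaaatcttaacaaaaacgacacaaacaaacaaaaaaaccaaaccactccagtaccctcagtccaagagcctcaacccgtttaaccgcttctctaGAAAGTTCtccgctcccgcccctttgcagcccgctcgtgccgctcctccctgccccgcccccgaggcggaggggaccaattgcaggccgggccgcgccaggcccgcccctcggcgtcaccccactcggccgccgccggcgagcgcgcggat
The motifs searched were the heat shock element pair (GAANNTTC or TTCNNGAA), the heat shock element triple (GAANNTTCNNGAA or TTCNNGAANNTTC, which contains the pair), the glucocorticoid response element (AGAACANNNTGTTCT) and its single-arm site (AGAACA or TGTTCT, which the full element contains), on both strands. The *Fkbp5* window before this start held none of these letters. The *Fkbp4* window held 1 heat shock element pair, starting 151 bases before the gene's start. Of 32851 mouse promoter windows of this length, 12.8% held the pair, 0.466% the triple, 0.00913% the full glucocorticoid element and 16.1% the single-arm site. Promoter sequence was matched for 5 of the 10 genes. The windows of *Ptges3* and *Stip1* held no match, and of the 2 annotated starts of *Dnajb1* 1 had 1 single-arm glucocorticoid site. The *Dnajb1* window with that site lies wholly inside the span of the gene in GENCODE.

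The libraries held between 16467560 and 17156728 estimated counts. Counts scaled to normalized library size (CPM) are used to compare libraries, and FPKM, which is also scaled for transcript length, to compare genes. The targeted gene *Becn1* was measured at 118 ± 9.37 CPM in Becn1f/f (SD, n = 3) and 106.9 ± 2.74 CPM (SD, n = 3) in the libraries labelled Becn1f/f;Pf4-iCre. Its log2 fold change was -0.15, with a standard error of 0.12 and an adjusted p of 0.94 by edgeR. The libraries are therefore called by their labels. For mice of this genotype the paper reports reduced *Becn1* RNA in sorted CD41-positive marrow cells by RT-qPCR. It also reports less Becn1 in MKs by imaging flow cytometry and none detectable in platelets. Why the counts here differ little was not tested. Of the 20 MK markers examined, 18 passed the filter, and *Gp6* and *Mpig6b* did not. *Pf4* had 4.87 ± 1.62 CPM (SD, n = 3) and 2.42 ± 0.556 CPM (SD, n = 3), *Ppbp* 5.54 and 5.40 CPM, *Gp9* 1.55 and 1.62 CPM, and *Itga2b* (CD41) 173 and 155 CPM. The MK marker with the highest FPKM was *Thbs1*, which other cells also express, and the other 19 together took 0.0446% to 0.0547% of the counts. Neutrophil markers took 0.950% to 1.71%, and the neutrophil gene *S100a8* had the highest FPKM of all tested genes. *Pf4*, *Ppbp* and *Gp9* were thus at low levels for the label, which does not change the grouping. *Itga2b* was not as low. Of the other markers, *Nfe2* averaged 92.5 FPKM and *Itgb3* 21.7 FPKM over all libraries, both named after their values were seen. In such bulk samples fewer cells of a type and less RNA per cell cannot be told apart.

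*Fkbp5* (Entrez 14229; chromosome 17, 28399094 to 28517527, minus strand, 14 exons, GRCm38) was the member with a fold change above 1.5 between the genotypes. It had 83.5, 108 and 127 CPM in Becn1f/f libraries 1, 2 and 3, and 311, 325 and 352 CPM in the libraries labelled Becn1f/f;Pf4-iCre. All 3 of the latter lay above all 3 of the former, with a wide gap between them. The means were 106 ± 21.9 CPM and 329 ± 20.8 CPM (SD, n = 3 each), a ratio of 3.10, and the log2 fold change was 1.63 (standard error 0.16, 95% interval 1.28 to 1.99). In FPKM the means were 30.1 ± 7.07 and 91.9 ± 7.29 (SD, n = 3 each). This moved *Fkbp5* from place 3236 to place 983 among the 12256 tested genes ordered by mean FPKM, and its log2 fold change was the 9th largest in size. These values rest on 1331 to 5926 estimated counts per library, for which counting error is at most 2.74%, far below the spread between libraries.

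Differentially expressed genes (DEGs) were defined by a fold change of at least 1.5 and an unadjusted P under 0.05. Of all tested genes 2.30% passed, 1.36% as higher and 0.938% as lower. Of the 10 receptor and chaperone genes, 1 passed, *Fkbp5*, and since it was chosen for this contrast nothing is read from the count. An adjusted p under 0.05 (edgeR) was reached by 0.0408% of tested genes, each of them higher in the libraries labelled Becn1f/f;Pf4-iCre. In CPM, 3 of the 10 had no overlap between genotypes (*Fkbp5* and *Hspa8* higher, *Hsp90ab1* lower), against 10.6% of all tested genes, 5.42% higher and 5.18% lower, and nothing is read from this count either. The median log2 fold change of the 10 was -0.05 (range -0.29 to 1.63), with 5 higher and 5 lower, and that of all tested genes was -0.02. Among all tested genes, 45.5% were higher.

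**Figure D1:**
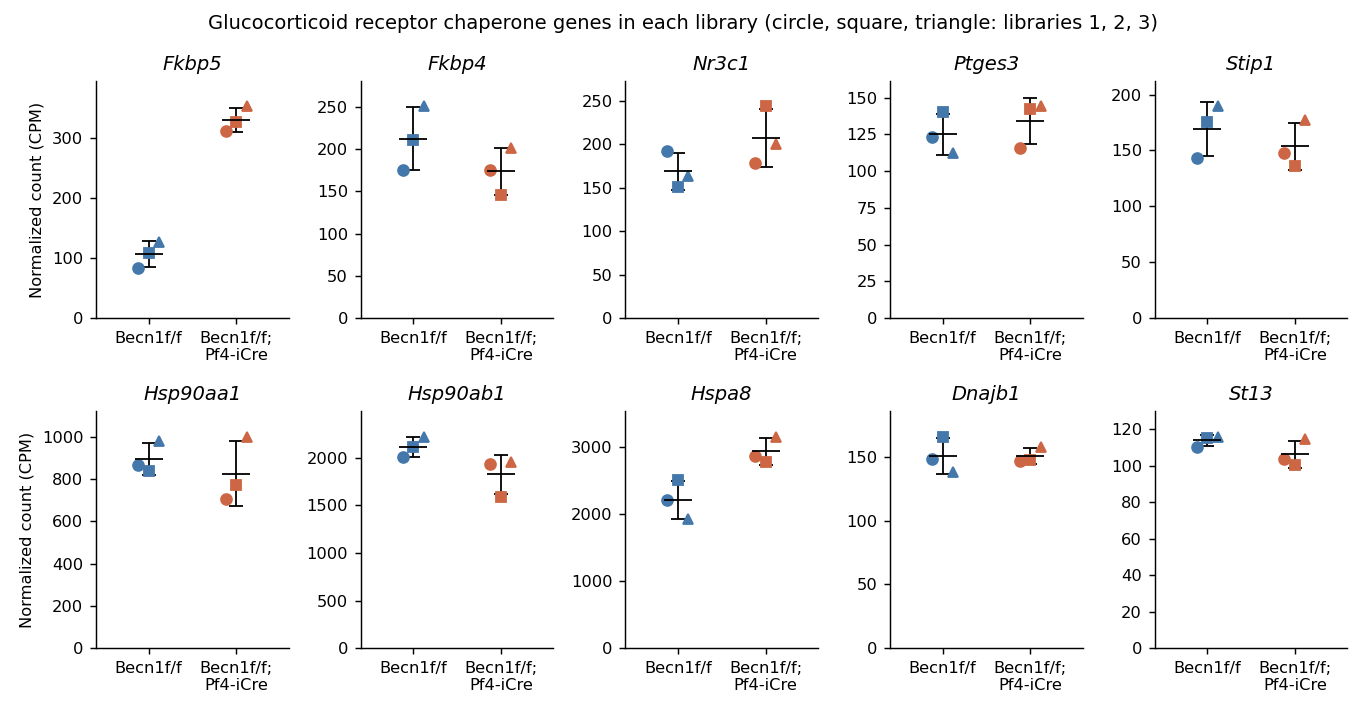
Normalized count (CPM) of the 10 genes in each library, with the genotypes on the x axis, points for libraries and bars for the mean ± SD (n = 3). *Fkbp5* is separated by genotype (83.5 to 127 against 311 to 352 CPM), *Hspa8* by less, and most of the others overlap.

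*Fkbp4*, the paralog that binds the same surface of HSP90, had the opposite sign with a small size. Its values were 176, 211 and 250.4 CPM in Becn1f/f and 175, 146 and 201 CPM in the libraries labelled Becn1f/f;Pf4-iCre. The ranges overlapped, and the log2 fold change was -0.29 (standard error 0.17, 95% interval -0.65 to 0.07). In CPM the means were 212 ± 37.4 and 174 ± 27.7 (SD, n = 3 each), and in FPKM *Fkbp4* moved from place 788 to place 982. The composition of the pair can be read within each library, where library scaling cancels. *Fkbp5* made up 19.98%, 21.3% and 21.1% of the summed FPKM of both genes in Becn1f/f, and 48.5%, 54.0% and 48.0% in the libraries labelled Becn1f/f;Pf4-iCre. The pair thus went from mostly *Fkbp4* to nearly equal parts, with a difference of 29.35 percentage points between means of 20.8% and 50.15%. By estimated counts, without the length scaling, the share went from 33.3% to 65.6%. The means behind it were 30.1 and 91.9 FPKM for *Fkbp5* and 114 and 91.9 FPKM for *Fkbp4*.

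*Nr3c1*, which encodes the glucocorticoid receptor itself, had 192, 151 and 164 CPM in Becn1f/f and 178, 243 and 199.7 CPM in the libraries labelled Becn1f/f;Pf4-iCre. The lowest of the second group lay below the highest of the first, so the groups overlapped. The log2 fold change was 0.29 (standard error 0.15, 95% interval -0.04 to 0.63), and the means were 169 ± 21.2 and 207 ± 33.2 CPM (SD, n = 3 each). *Nr3c1* had the lowest FPKM of the 10 genes in both genotypes, 27.8 and 33.8. It was the sole member whose highest value among the libraries labelled Becn1f/f;Pf4-iCre was in library 2 and not in library 3.

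The cytosolic HSP90 genes were the next most abundant after *Hspa8*. *Hsp90ab1*, the constitutive form, had 2004, 2111 and 2219 CPM in Becn1f/f and 1931, 1588 and 1957 CPM in the libraries labelled Becn1f/f;Pf4-iCre. The groups did not overlap in CPM, by a margin of 1957 to 2004, but they did in FPKM, where Becn1f/f spanned 889 to 1046 and the other genotype 734 to 899. Its log2 fold change was -0.21 (standard error 0.15, 95% interval -0.53 to 0.11). *Hsp90aa1*, the stress-inducible form, had 869, 839 and 982 CPM against 705, 773 and 1001 CPM. These groups overlapped, the third library labelled Becn1f/f;Pf4-iCre being the highest of all 6, and the log2 fold change was -0.12 (standard error 0.16, 95% interval -0.47 to 0.23). *Hsp90aa1* made up 26.8% ± 1.10 of the summed FPKM of both HSP90 genes in Becn1f/f and 28.1% ± 3.57 (SD, n = 3 each) in the libraries labelled Becn1f/f;Pf4-iCre, a difference of 1.25 percentage points that is smaller than the spread of the latter. The balance of the inducible and constitutive forms therefore did not differ beyond the spread between libraries.

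*Hspa8* encodes HSC70, the constitutive HSP70 that loads client proteins and also serves chaperone-mediated autophagy and clathrin uncoating. It had 2209, 2499 and 1925 CPM in Becn1f/f and 2868, 2771 and 3151 CPM in the libraries labelled Becn1f/f;Pf4-iCre. The groups did not overlap in CPM or in FPKM. The means were 2211 ± 287 and 2930 ± 197 CPM (SD, n = 3 each), and the log2 fold change was 0.41 (standard error 0.15, 95% interval 0.08 to 0.74), below the fold change of 1.5. *Hspa8* was the most abundant of the 10 genes, at 1243 and 1632 FPKM, places 72 and 45 among tested genes. Of the summed FPKM of *Hspa8* and both HSP90 genes, a sum chosen after the values were seen, it took 49.6%, 51.9% and 43.5% in Becn1f/f and 58.0%, 60.1% and 57.8% in the other genotype. *Dnajb1*, an HSP40 that stimulates the ATPase of HSP70, differed least. Its means were 150.4 ± 14.1 and 150.5 ± 6.11 CPM (SD, n = 3 each), with overlapping groups and a log2 fold change of 0.0012 (standard error 0.13, 95% interval -0.28 to 0.28). *St13*, the HSP70-interacting protein HIP, had 111, 115 and 116 CPM against 104, 100.4 and 115 CPM. The groups overlapped, and the log2 fold change was -0.10 (standard error 0.12, 95% interval -0.37 to 0.17).

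The adaptor *Stip1* and the p23 gene *Ptges3* stayed within the spread between libraries. *Stip1* had 143, 175 and 189 CPM in Becn1f/f and 148, 136 and 177 CPM in the libraries labelled Becn1f/f;Pf4-iCre, with a log2 fold change of -0.14 (standard error 0.15, 95% interval -0.47 to 0.19). *Ptges3* had 123, 139.9 and 112 CPM against 116, 142 and 144 CPM, with a log2 fold change of 0.10 (standard error 0.14, 95% interval -0.21 to 0.41). Both overlapped between genotypes. Several members share sequence with processed pseudogenes, into which reads could have been split: of the 50-base stretches of the transcript, 73.22% occur in another gene's transcript for *Hspa8*, 58.51% for *Hsp90aa1*, 22.25% for *Ptges3*, and 0.00% for *Fkbp5* and *Fkbp4*. None of those pseudogenes is among the listed genes, so whether any reads were assigned to them cannot be told. The counts of the former genes may therefore be less certain than those of the immunophilins. For *Stip1*, 5.59% of the stretches occur in transcripts of *Cfap20*, which is listed and had at most 401 counts in a library.

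**Figure D2:**
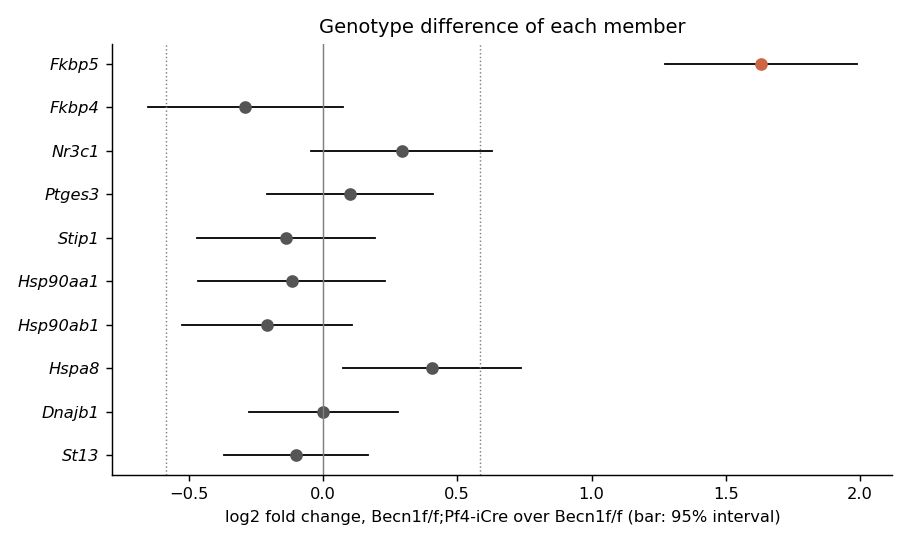
log2 fold change of each of the 10 genes (libraries labelled Becn1f/f;Pf4-iCre over Becn1f/f, x axis) with its 95% interval; dotted lines mark the 1.5-fold limits. *Fkbp5* (1.63) lies apart from the other 9, which run from -0.29 to 0.41.

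The order of the FPKM levels in Becn1f/f was *Hspa8*, *Hsp90ab1*, *Hsp90aa1*, *Fkbp4*, *Stip1*, *St13*, *Ptges3*, *Dnajb1*, *Fkbp5* and *Nr3c1*. Of the 9 neighbouring pairs, 4 overlapped in their range over libraries: *Fkbp4* with *Stip1*, *Stip1* with *St13*, *St13* with *Ptges3*, and *Fkbp5* with *Nr3c1*. In the libraries labelled Becn1f/f;Pf4-iCre the order at the top was the same and *Fkbp5* stood at place 5, overlapping *Fkbp4* and *Stip1* on either side. Without Becn1f/f library 1, none of the neighbouring pairs overlapped in Becn1f/f. *Fkbp5* took 0.981% of the summed FPKM of the 10 genes in Becn1f/f and 2.785% in the other genotype, while *Hspa8* went from 40.7% to 49.4% and *Hsp90ab1* from 31.8% to 25.1%.

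**Figure D3:**
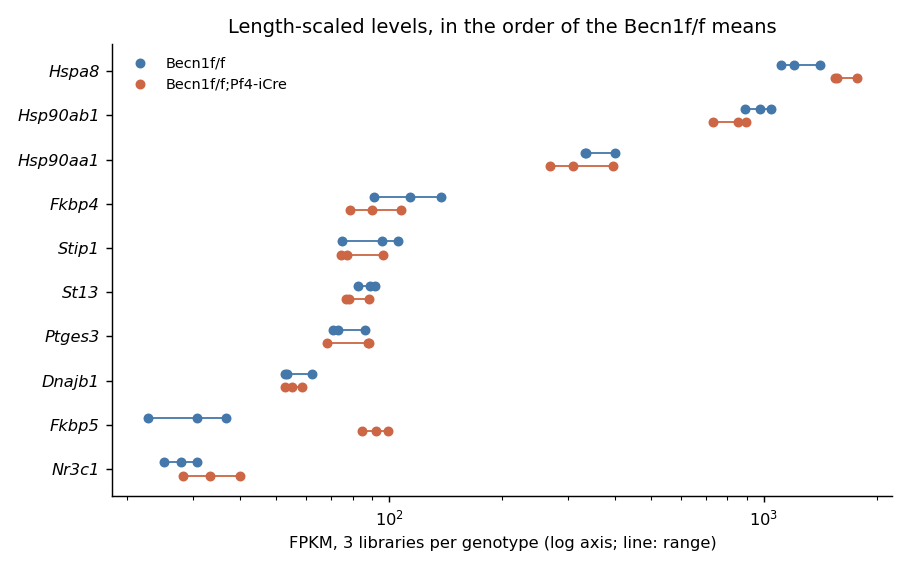
FPKM of the 10 genes on a log axis, in the order of the Becn1f/f means; points are libraries and lines their range. *Fkbp5* goes from 30.1 to 91.9 on average, from beside *Nr3c1* to beside *Fkbp4* (91.9).

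**Figure D4:**
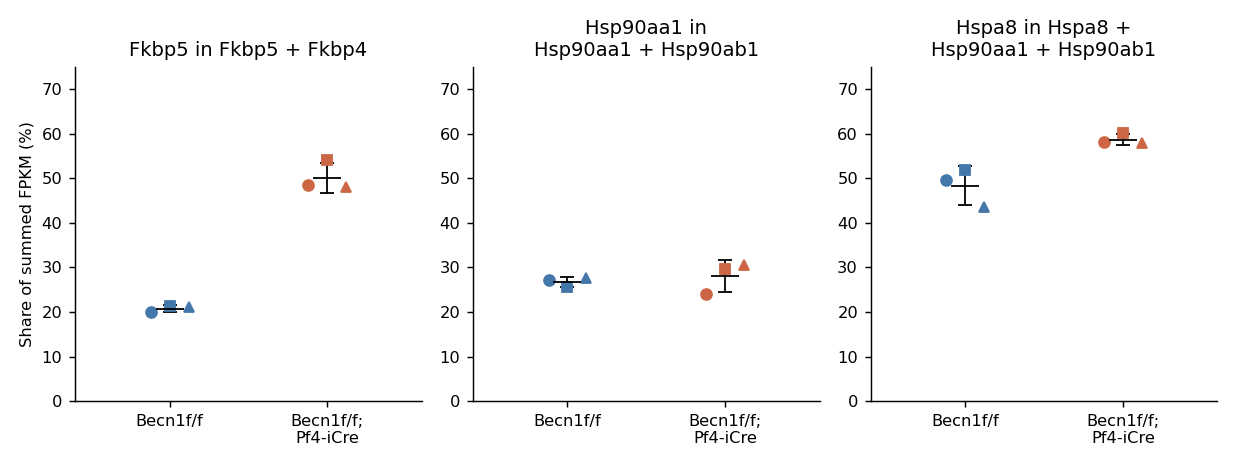
Share of the summed FPKM (y axis, %) taken by 1 gene of each of 3 sums in each library, with the mean ± SD (n = 3). The third sum, *Hspa8* with both HSP90 genes, mixes families and was chosen after the values were seen (*Hspa8* share 48.3% to 58.6%). The share of *Fkbp5* goes from 20.8% to 50.15%, and that of *Hsp90aa1* only from 26.8% to 28.1%.

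The libraries of a genotype also differed among themselves. Among those labelled Becn1f/f;Pf4-iCre, library 3 was the highest for 9 of the 10 genes, all but *Nr3c1*, where 31.0% of all tested genes were highest in it. Among the Becn1f/f libraries, library 1 was the lowest for 5 (*Fkbp5*, *Fkbp4*, *Hsp90ab1*, *Stip1* and *St13*), where 38.0% of all tested genes were lowest. That count is near the share over all genes, and nothing is read from it. The coefficient of variation of *Fkbp5* was 20.6% in Becn1f/f, above the median of 14.3% over tested genes, and 6.3% in the libraries labelled Becn1f/f;Pf4-iCre, below the median of 11.8%. *St13* varied least in Becn1f/f, by 2.58%. The heat-inducible twin genes *Hspa1a* and *Hspa1b*, chosen after their values were seen and near-identical so that reads may be split between them, were also highest in library 3. *Hspa1a* had 30.2, 41.6 and 66.3 CPM in Becn1f/f and 29.9, 46.9 and 145.6 CPM in the other genotype. *Hspa1b* had 18.3, 43.7 and 65.4 CPM against 24.8, 40.7 and 118 CPM. Their log2 fold changes were 0.69 and 0.53, with standard errors of 0.46 and 0.51. For both genes only library 3 labelled Becn1f/f;Pf4-iCre lay above the highest Becn1f/f value, so that library alone carries each difference. What made the libraries differ was not tested.

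The wider chaperone families are small, so the background share of 2.30% comes to less than 1 gene in each, and nothing is read from a count of 0. Since 45.5% of all tested genes were higher, nothing is read from the splits into higher and lower genes either. Of 29 other genes of the HSP90 system, 0 passed, 8 were higher and 21 lower around a median of -0.04 (log2 fold change), and 0 genes had an unadjusted P under 0.05 by edgeR. The endoplasmic reticulum HSP90 *Hsp90b1* had a log2 fold change of 0.00, the dynein-linked cochaperone *Nudc* -0.24 and the ATPase activator *Ahsa1* -0.03. Of 37 other genes of the HSP70 system, 0 passed, with 18 higher and 19 lower and a median of -0.02, and 1 had an unadjusted P under 0.05, *Dnajb14*, chosen after its value was seen (log2 fold change 0.51, adjusted p = 0.45, edgeR). The examples with the highest FPKM were the ER chaperone *Hspa5* (-0.03) and the HSP40 genes *Dnajb6* (0.01) and *Dnaja1* (0.25). Of 12 other FKBP-type genes tested, 0 passed, and 4 were higher and 8 lower. *Fkbp8*, a mitochondrial member, had -0.13 and *Fkbp2* -0.16. Of 20 heat shock response genes tested 0 passed, with 9 higher and 11 lower (*Ubb* -0.07, *Cct5* -0.17). When single libraries were left out, at most 2 genes of a family passed.

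Of 22 steroid receptors, coregulators and transport factors tested, 0 passed, with 14 higher and 8 lower, where 45.5% of all tested genes were higher. The median log2 fold change of the 22 was 0.04 (*Kpna2* -0.24, *Smarca4* -0.21, *Ncor1* 0.04). Some of the other steroid receptors, named after their values were seen, were near absent. The mineralocorticoid receptor *Nr3c2* averaged 0.425 and 0.379 CPM and the progesterone receptor *Pgr* 0.0798 and 0.120 CPM, both below the filter. The estrogen receptor *Esr1* averaged 10.1 and 10.6 CPM, and *Hsd11b1*, the enzyme that regenerates active glucocorticoid, 35.8 and 32.9 CPM. *Nr3c1* was therefore the most abundant by CPM of the steroid hormone receptor genes given here.

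Genes that glucocorticoids are known to induce, apart from *Fkbp5*, were listed with earlier results known, and the list was not tested against other genes. Of 28 tested, 7 passed the DEG thresholds, all higher in the libraries labelled Becn1f/f;Pf4-iCre, where 1.36% of all tested genes passed as higher and 0.938% as lower. Among the 28, none had an adjusted p under 0.05 (edgeR's quasi-likelihood test), while 12 had an unadjusted P under 0.05, 10 higher and 2 lower, against 6.31% of all tested genes. The median log2 fold change of the 28 was 0.27, with 20 higher and 8 lower, where 45.5% of all tested genes were higher. The 7 were *Tsc22d3* (GILZ, an anti-inflammatory mediator; log2 fold change 0.77), the transcription factor *Zbtb16* (0.63), the EGFR inhibitor *Errfi1* (0.88), the haemoglobin scavenger receptor *Cd163* (0.70), the kinase *Map3k6* (0.76), the small GTPase *Arl4d* (0.68) and the repressor *Bcl6* (0.59). Their adjusted p ranged from 0.089 to 0.62. *Tsc22d3* had 149, 175.5 and 184 CPM in Becn1f/f and 205, 293 and 369 CPM in the other genotype, without overlap. It did not pass the DEG thresholds without library 3 labelled Becn1f/f;Pf4-iCre. *Zbtb16*, *Arl4d* and *Bcl6* also did not pass in some of the fits that left out 1 library. The 3 genes of the list with the highest FPKM did not pass: the phosphatase *Dusp1* had a log2 fold change of 0.54, the iron-binding *Lcn2* -0.51 and the NF-kB inhibitor *Nfkbia* -0.31. On log2(FPKM + 1), 3 genes of the list passed. When 1 library was left out, 5 to 7 passed as higher and 0 to 2 as lower, the 2 being *Lcn2* and *Il1r2*, a decoy receptor for interleukin 1 chosen after its value was seen, without Becn1f/f library 2. Without Becn1f/f library 3 the median was 0.13.

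Some markers of macrophages were higher in the same libraries as *Fkbp5*. Of 13 macrophage markers that passed the filter 12 were higher and 1 lower, where 45.5% of all tested genes were higher. The median log2 fold change of the 13 was 0.45. Of them 5 passed the DEG thresholds as higher, among them *Mrc1*, *C1qc*, *Cd163* and *Siglec1*, where 1.36% of all tested genes passed as higher. The other markers did not pass, among them *Csf1r*, the marker with the highest FPKM, with a log2 fold change of 0.26, and, chosen after their values were seen, *Cd68* (0.14), *Adgre1* (0.00) and *Vcam1* (-0.20). The summed level of the 13 markers was 849 to 898 CPM in Becn1f/f and 935 to 1165 CPM in the libraries labelled Becn1f/f;Pf4-iCre. *Csf1r* alone had means of 431 and 516 CPM, so the sum mostly follows it and few other markers. The ratio of means was 1.18 for the sum, 1.20 for *Csf1r*, 2.39 for *Mrc1* and 3.10 for *Fkbp5*. In libraries 1, 2 and 3 labelled Becn1f/f;Pf4-iCre the sum was 1165, 1009 and 935 CPM. In the same order *Mrc1* had 20.9, 27.0 and 18.8 CPM, and *Fkbp5* 311, 325 and 352 CPM. The 3 other macrophage markers were below the filter: *Marco* was at 0 in 3 libraries and *Timd4* in 2, and *Spic* had 3 to 9 counts. Erythroid markers moved the other way, with 15 of 15 tested lower, where 6677 of all 12256 tested genes were lower. The summed levels of these markers were 670 to 998 against 524 to 664 CPM. Neutrophil markers were lower for 15 of 16, with sums of 12580 to 17670 against 9766 to 13110 CPM. Leaving out the 3 glucocorticoid-induced genes that are also macrophage or neutrophil markers (*Cd163*, *Mertk* and *Lcn2*), an alternative chosen after seeing the data, 6 of 25 passed as higher and 0 as lower, and the median was 0.25. The part of these cell types in the values of *Fkbp5* and of the glucocorticoid-induced genes was not tested.

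**Figure D5:**
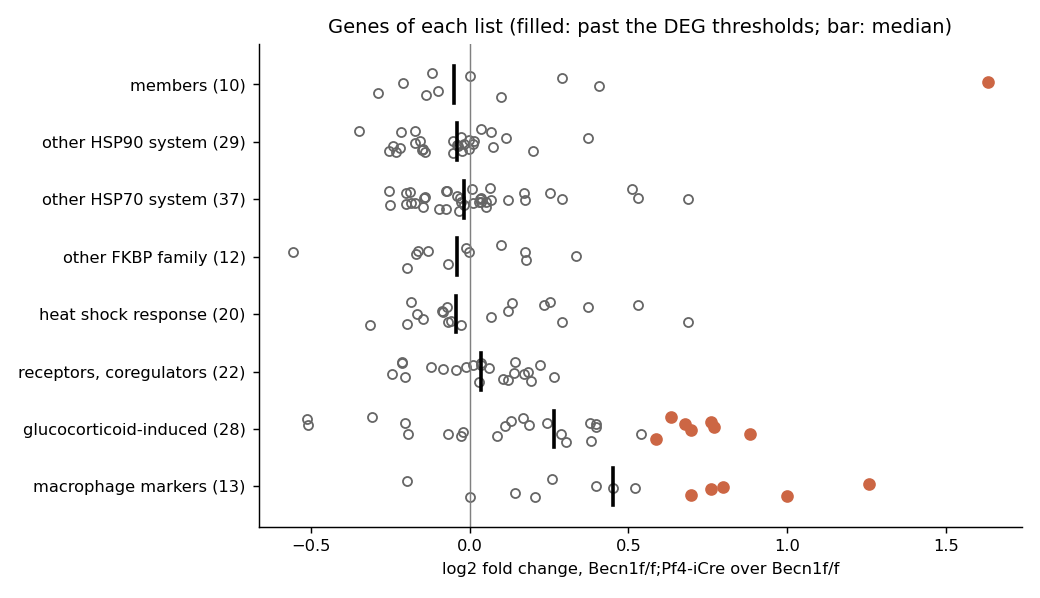
log2 fold change (x axis) of every tested gene of the receptor and chaperone set, the wider families, the glucocorticoid-induced genes and the macrophage markers; filled points passed the DEG thresholds and bars mark medians. Filled points appear for *Fkbp5*, for 7 glucocorticoid-induced genes and for 5 macrophage markers.

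The genes whose pattern over the 6 libraries was nearest to that of *Fkbp5* were *Lifr*, *Wnk2*, *Ifi213*, *Mrc1* and *Abca9*. The measure was the mean absolute difference of the log2 CPM, centred on each gene's own mean, and it was 0.219, 0.272, 0.275, 0.289 and 0.301 for these genes among 12255 compared. Their log2 fold changes were 1.22, 1.39, 1.26, 1.26 and 1.22, each smaller than the 1.63 of *Fkbp5*. *Lifr* encodes the leukaemia inhibitory factor receptor, *Wnk2* a kinase, *Ifi213* an interferon-inducible protein, *Mrc1* the macrophage mannose receptor and *Abca9* a membrane transporter. In all 5 the libraries labelled Becn1f/f;Pf4-iCre lay above those labelled Becn1f/f, as 5.42% of all tested genes did. Since the genes were picked for their likeness to *Fkbp5* over these same libraries, nothing is read from this.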

How the data were processed

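RNA of sorted bone marrow cells labelled MKs was measured in 6 libraries, 3 of each genotype, which were grouped and numbered by their labels. The authors filtered reads and mapped them with HISAT; the submitters' processing notes also name Bowtie2 and GRCm39 (mm39), and the counting tool is not given in the sources used here. The authors deposited, for 16579 genes, an estimated count, not whole for 10.3% to 11.3% of genes per library, and an FPKM value scaled for transcript length and library size. 16 further columns of per-sample values (4 of them of 1 library that matches no sample) and 8 of group means were not used.

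Estimated counts were rounded, filtered by edgeR's expression filter (12256 genes), scaled by TMM and fitted by the quasi-likelihood method of edgeR 4.0.16 under R 4.3.3 (genotype only, Benjamini-Hochberg adjustment). The steps were tested on simulated data. The DEG thresholds are those of the study's methods. Libraries of a genotype correlated at 0.980 to 0.991 (Pearson) and differed beyond sampling noise (chi-square over its degrees of freedom, 15.2 to 50.3), and each was taken as 1 sample. Counting errors given cover read sampling alone. The receptor and chaperone genes and all gene lists were chosen with earlier results of these data known. Singly named were those genes, *Becn1*, from each list that holds no markers the 3 tested genes with the highest FPKM and every DEG, a few markers, and the 5 genes nearest to *Fkbp5* in pattern. Some genes under this rule are not reported here. Others were chosen after their values were seen. Log2 CPM patterns used a prior count of 2. Gene positions and transcripts are from GENCODE M21 on GRCm38, another build than the authors', and no position was taken from the table. Alternatives were DESeq2 1.42.0, its size factors, upper-quartile or no normalization factors, other filters, limma 3.58.1 (voom, or log2(FPKM + 1) and log2(FPKM + 0.1)), a replicate block, removal of GC and length trends, and leaving out each library.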

Additional observations from a re-analysis of the deposited data

How the results depend on the processing

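The log2 fold change of *Fkbp5* lay between 1.49 and 1.78 over 18 alternatives, a description, since it was chosen for this contrast, and none of the other 9 genes passed the DEG thresholds under any. *Hspa8* stayed between 0.32 and 0.50, and the sign of *Dnajb1* was kept in 10 of 18. After removal of GC and length trends, which had Spearman correlations of -0.35 and 0.19 with the log2 fold change across genes, *Fkbp5* was at 1.67. By counts the share of *Fkbp5* in its pair with *Fkbp4* differed by 32.3 percentage points. The DEG count of 282 (167 higher, 115 lower, 59.2% higher) was 121 with log2(FPKM + 1) (88 higher, 33 lower, 72.7% higher), 432 with log2(FPKM + 0.1) (216 higher, 216 lower) and 137 with log2(FPKM + 1) at a mean FPKM of at least 1 (96 higher, 41 lower, 70.1% higher). It was 225 to 410 when 1 library was left out, with 133 to 267 higher (the most without Becn1f/f library 1) and 92 to 208 lower (the most without Becn1f/f library 2). Genes with an adjusted p under 0.05, 5 by edgeR, numbered 71 with DESeq2, 8 with upper-quartile scaling, 16 by library size only, 23 without a filter, 0, 0 and 8 in the 3 FPKM fits in the order above, 8 after removal of GC and length trends and 0 to 27 when 1 library was left out (27 without Becn1f/f library 1, 1 without Becn1f/f library 2, 0 and 2 without libraries 1 and 2 labelled Becn1f/f;Pf4-iCre). DEGs among the wider families numbered 0 to 1 for the HSP90 system (*Fnip1* without Becn1f/f library 1), 0 to 2 for the HSP70 system (*Dnajb14* and *Hspa1a* without library 1, *Dnajb14* without library 3 labelled Becn1f/f;Pf4-iCre), 0 to 1 for FKBP genes (*Fkbp11*, lower, without Becn1f/f library 1 or the other genotype's library 3) and 0 to 1 for heat shock genes (*Hspa1a*), all chosen after their values were seen. Glucocorticoid-induced DEGs numbered 3 with log2(FPKM + 1), with or without its filter. Overlapping neighbours in the order of levels were 4, and 0 without Becn1f/f library 1. The cause of these changes was not tested.

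Same-numbered libraries of the genotypes had correlations of deviations of 0.068, -0.279 and 0.201, and only the third pair correlated best with its own number. Deviations from a mean of 3 libraries depend on each other, so these values cannot decide whether the numbers pair the samples. The main fit took the samples as unpaired. With the replicate block, 296 DEGs were called, 255 of them shared with the fit without it, and 19 genes had an adjusted p under 0.05. With 3 libraries per genotype the spread between them limits most values. For *St13* in Becn1f/f it was 2.58%, close to the counting error of 2.21% to 2.45% over the counts of all 6 libraries. Depth limits the least expressed receptors.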
